A study of Mus musculus with 12 samples.

Results

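The genes described here make the proteins that sort membrane cargo in endosomes: 35 genes named Vps (vacuolar protein sorting), 10 named Chmp (charged multivesicular body proteins) and 30 named Snx (sorting nexins). They were chosen by symbol alone, as every gene whose symbol is Vps, Chmp or Snx followed by a number and, in some, a letter. This took 75 of 56980 features, and 71 of the 75 passed the filter on low counts and were tested. The remaining 4 (Chmp4c, Snx22, Snx31 and Vps37d) lay under 1 CPM, a count scaled to library size, in every library. Their levels were measured in macrophages grown from mouse bone marrow (BMDM), 3 libraries in each of 4 groups. The groups were Trem2 KO cells given 25 nM BafA1 for 22 hours, Trem2 KO cells given DMSO for 22 hours, WT cells given 25 nM BafA1 and WT cells given DMSO. Bafilomycin A1 (BafA1) blocks the proton pump of lysosomes, DMSO is its vehicle, and Trem2 is a lipid-sensing receptor of macrophages. Cells of all 4 groups were differentiated and kept in M-CSF, and were frozen and thawed before treatment. Per the labels' protocols each biological replicate pooled bones of several mice, and the age and sex of the mice and the deleted part of Trem2 are not given.

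Cargo that reaches an endosome is either returned to the Golgi or the cell surface, or is taken into internal vesicles and degraded in the lysosome. Retromer, retriever and the sorting nexins form the return routes, the ESCRT complexes with the Chmp proteins form the internal vesicles, and the HOPS and CORVET tethers bring endosomes together with each other and with lysosomes. Macrophages rely on these routes to clear what they engulf and to keep receptors at their surface. A symbol does not fix a function: Vps72 is a subunit of chromatin remodelling complexes and is in the set for its name only.

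Libraries held 4407466 to 7074860 estimated counts, and the 75 genes took 0.583% to 0.674% of them. The targeted gene Trem2 had 149, 147 and 182 CPM in Trem2 KO BafA1 and 219.5, 199 and 217 CPM in Trem2 KO DMSO. Trem2 in WT had 401, 400.5 and 401 CPM with BafA1 and 619, 569.7 and 575 CPM with DMSO. Its tag was below every WT library in each KO library of the same treatment, with log2 differences of -1.33 ± 0.081 (adjusted p = 1.4e-10) with BafA1 and -1.47 ± 0.08 (adjusted p = 6.9e-12) with DMSO. It was not absent, and a 3′ tag that lies outside the deleted part would check nothing. Macrophage markers (8 listed, 8 tested) summed to 5380 to 6750 CPM in Trem2 KO BafA1, 7400 to 8760 CPM in Trem2 KO DMSO, 5380 to 5900 CPM in WT BafA1 and 7080 to 7680 CPM in WT DMSO. Lyz2, the most abundant, averaged 4320 CPM in Trem2 KO BafA1, 5299 CPM in Trem2 KO DMSO, 3748 CPM in WT BafA1 and 4620 CPM in WT DMSO. With BafA1 0 of the 8 were higher and 7 lower in Trem2 KO, and 1 was higher and 7 lower in WT. By genotype 1 was higher and 3 lower in Trem2 KO with BafA1, and 3 higher and 2 lower with DMSO. Fcgr1 averaged 5.08 CPM in Trem2 KO BafA1, 69.6 CPM in Trem2 KO DMSO, 3.04 CPM in WT BafA1 and 47.5 CPM in WT DMSO, and Itgam averaged 59.3 CPM in Trem2 KO BafA1, 165 CPM in Trem2 KO DMSO, 148 CPM in WT BafA1 and 418 CPM in WT DMSO. Granulocyte markers (8 listed, 5 tested) summed to 67.3 to 119 CPM in Trem2 KO BafA1, 374 to 650 CPM in Trem2 KO DMSO, 44.1 to 55.9 CPM in WT BafA1 and 145 to 163 CPM in WT DMSO. All 5 tested were lower with BafA1 in each genotype and higher in Trem2 KO than in WT with DMSO. Markers of dividing cells (6 listed) summed to 29.8 to 34.3 CPM in Trem2 KO BafA1, 35.7 to 47.8 CPM in Trem2 KO DMSO, 89.8 to 113 CPM in WT BafA1 and 438 to 468 CPM in WT DMSO. All 6 were lower in Trem2 KO than in WT with each treatment. Mitochondrial transcripts took 4.22% to 4.3% of counts in Trem2 KO BafA1, 5.74% to 7.36% in Trem2 KO DMSO, 3.72% to 3.84% in WT BafA1 and 4.25% to 4.8% in WT DMSO, without overlap between the groups compared. Lymphocyte, dendritic cell and stromal markers summed to at most 11.5 CPM in any library, and no listed marker of any type was at 0 in all libraries. Fewer cells of a type and less RNA per cell cannot be told apart in such bulk libraries, and the part of these shifts in the results below was not tested.

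With DMSO in WT the tested genes lay between 2.20 and 789 CPM, with a median of 38.7 CPM. In that group 19 were over 100 CPM and 16 under 20 CPM, and the 5 highest held 34.8% of the summed level. Snx5, a sorting nexin that bends membranes into tubules, was the highest with 789 ± 8.5 CPM (mean ± SD of 3 libraries here and below). Because the kit takes tags at the 3′ end of transcripts, levels of different genes were compared without a correction for gene length. Whether duplicates were removed was not given, and their part in these levels was not tested.

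Treatment with BafA1 moved these genes in both directions, and by small amounts. In Trem2 KO cells 15 of 71 were higher and 13 lower (21.1% and 18.3%) at an edgeR adjusted p under 0.05, where 40.6% of all 12052 genes tested were called (19.8% higher and 20.7% lower). In WT cells 23 were higher and 10 lower (32.4% and 14.1%), where 46.9% of all genes were called (21.6% higher and 25.3% lower). The median log2 fold change of the 71 genes was -0.01 in Trem2 KO and 0.10 in WT, beside 0.002 in Trem2 KO and -0.04 in WT over all genes. The median size of a change, on the log2 scale and without sign, was 0.25 in Trem2 KO and 0.24 in WT, beside 0.33 in Trem2 KO and 0.36 in WT over all genes. The 71 genes were more abundant, with a median of their mean levels of 45.2 CPM beside 21.1 CPM over all genes. Sizes and shares, here and below, were not compared at matched levels. A 2-fold change was passed by 2 of 71 (2.82%) in Trem2 KO and 3 (4.23%) in WT, and by 10.4% of all genes in Trem2 KO and 15.3% in WT. The libraries of the groups did not overlap for 35 genes in Trem2 KO and 41 in WT, beside 47.7% of all genes in Trem2 KO and 56.0% in WT. Below, responses (BafA1 over DMSO) and genotype differences (Trem2 KO over WT) are log2 fold changes ± SE with edgeR's adjusted p. A call is said to be lost where that p was no longer under 0.05 with the named library left out of the fit.

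Of the genes called higher, 12 were shared by the genotypes, which is 80.0% of the 15 in Trem2 KO and 52.2% of the 23 in WT. Of those called lower, 7 were shared, 53.8% of the 13 in Trem2 KO and 70.0% of the 10 in WT, and 0 were called in opposite directions. The same overlap was not computed over all genes, so these shares do not tell whether the set differs from other genes. The 12 shared increases were Chmp2b, Chmp3, Chmp5, Snx1, Snx7, Snx10, Snx11, Snx12, Vps29, Vps35, Vps37a and Vps72. The 7 shared decreases were Snx2, Snx5, Snx9, Snx24, Snx29, Vps9d1 and Vps13a.

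Between genotypes, more of these genes were higher in Trem2 KO than were lower. With BafA1 16 of 71 genes were higher and 3 lower in Trem2 KO than in WT (22.5% and 4.23%), where 26.7% of all genes were called (12.5% higher and 14.2% lower). With DMSO 20 were higher and 4 lower (28.2% and 5.63%), where 30.3% of all genes were called (13.8% higher and 16.5% lower). The median log2 difference was -0.001 with BafA1 and 0.13 with DMSO, beside 0.01 with BafA1 and -0.01 with DMSO over all genes, and 0 of the 71 passed 2-fold with either. The genotypes' libraries did not overlap for 31 genes with BafA1 and 38 with DMSO, beside 40.9% of all genes with BafA1 and 41.9% with DMSO. Of the genes higher in Trem2 KO, 12 were shared by the treatments, 75.0% of the 16 with BafA1 and 60.0% of the 20 with DMSO. This overlap too was not computed over all genes. The comparison of genotypes with DMSO and the BafA1 response of WT share the WT DMSO libraries, which enter them on the same side, so their values are given side by side and not counted together. Likewise the Trem2 KO response and the comparison of genotypes with BafA1 share the Trem2 KO BafA1 libraries on the same side. Trem2 KO DMSO libraries enter the Trem2 KO response and the comparison with DMSO on opposite sides. So do WT BafA1 libraries in the WT response and the comparison with BafA1.

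**Figure D1:**
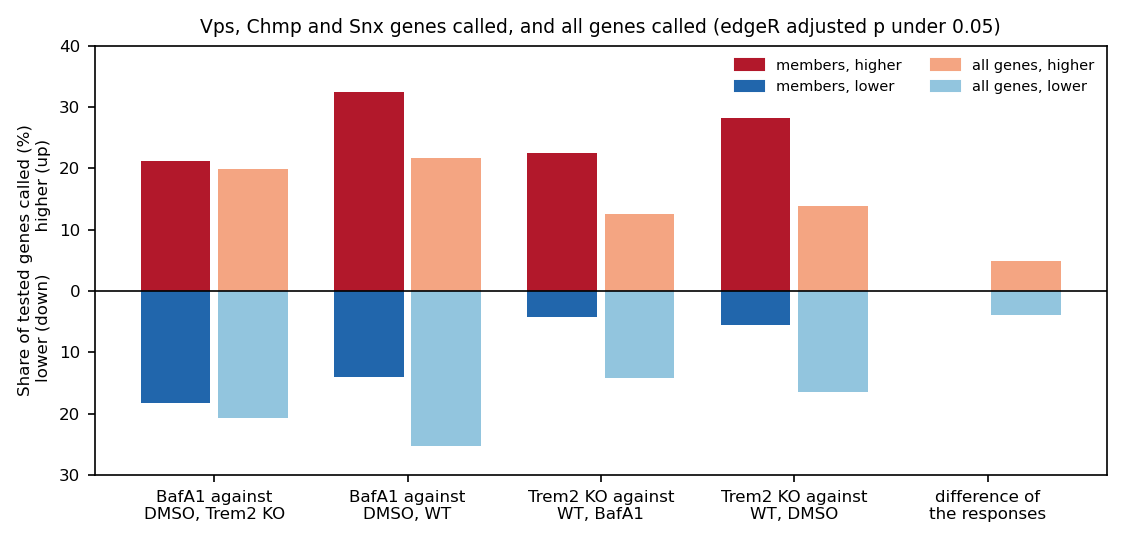
Bars show the percent of tested genes called higher (upward) and lower (downward) in each comparison, for the 71 tested Vps, Chmp and Snx genes (dark) and for all 12052 genes tested (light). In the comparisons of genotype the dark bars are 22.5% and 28.2% upward against 12.5% and 13.8% for all genes, and in the difference of responses the 71 genes have no bar.

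**Figure D2:**
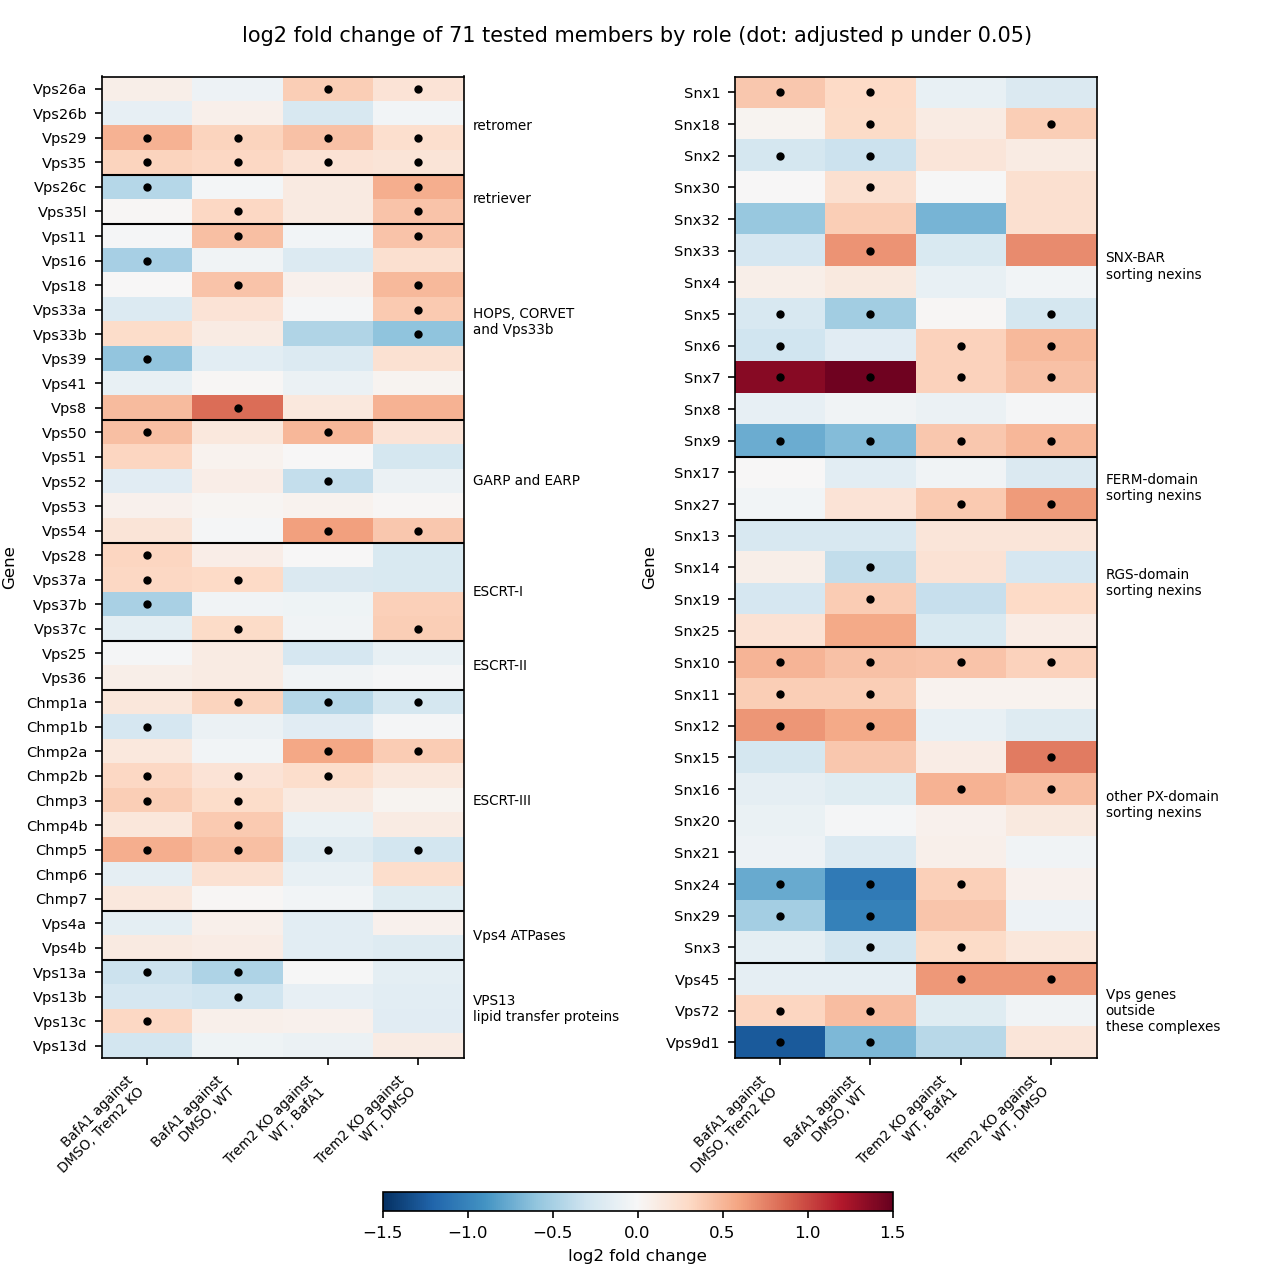
Each cell is the log2 fold change of 1 tested gene (row, ordered by role) in 1 comparison (column), red where the first-named group is higher and blue where it is lower, with a dot where the adjusted p was under 0.05. Snx7 holds the darkest red cells (1.37 and 1.46) and Vps9d1 the darkest blue one (-1.26 in Trem2 KO), while the ESCRT-II and Vps4 genes carry no dot.

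Retromer is the trimer that lifts receptors out of endosomes. Of only 4 genes, the scaffold Vps35 and Vps29 had higher transcript levels after BafA1 in both genotypes. Transcripts of Vps35, Vps29 and Vps26a were higher in Trem2 KO with both treatments. Of all genes 19.8% in Trem2 KO and 21.6% in WT were higher after BafA1. Between genotypes 12.5% of all genes were higher in Trem2 KO with BafA1 and 13.8% with DMSO. Vps35 had 404, 438 and 429.5 CPM in Trem2 KO BafA1 and 329, 358 and 322 CPM in Trem2 KO DMSO. Vps35 in WT had 343, 378 and 373 CPM with BafA1 and 301, 291 and 288 CPM with DMSO. In each genotype every BafA1 library was above every DMSO library, and in each treatment every KO library was above every WT library. Its log2 response to BafA1 was 0.33 ± 0.071 (adjusted p = 0.00064) in Trem2 KO and 0.31 ± 0.071 (adjusted p = 0.00083) in WT, and its log2 difference between Trem2 KO and WT was 0.22 ± 0.07 (adjusted p = 0.026) with BafA1 and 0.20 ± 0.071 (adjusted p = 0.039) with DMSO. Vps29, which docks regulators on the retromer and retriever scaffolds, had 235, 239 and 271 CPM in Trem2 KO BafA1 and 161, 181 and 177 CPM in Trem2 KO DMSO. Vps29 in WT had 168, 195 and 185 CPM with BafA1 and 153, 145 and 136 CPM with DMSO. The same 4 orderings held for Vps29, without overlap. Its response was 0.52 ± 0.083 (adjusted p = 2.2e-05) in Trem2 KO and 0.34 ± 0.083 (adjusted p = 0.0017) in WT, and its genotype difference 0.44 ± 0.081 (adjusted p = 0.00038) with BafA1 and 0.26 ± 0.084 (adjusted p = 0.023) with DMSO. Vps26a, an arm that binds sorting nexins and cargo, averaged 193 ± 10.8 CPM in Trem2 KO BafA1 and 181 ± 16.6 CPM in Trem2 KO DMSO. Vps26a in WT averaged 149 ± 1.98 CPM with BafA1 and 157 ± 2.41 CPM with DMSO. It differed between genotypes by 0.37 ± 0.077 (adjusted p = 0.0011) with BafA1 and 0.21 ± 0.077 (adjusted p = 0.047) with DMSO. Its paralog Vps26b passed no test. The calls with DMSO were lost for Vps35 without Trem2 KO DMSO replicate 2 or WT DMSO replicate 2 or 3 (adjusted p = 0.082 to 0.14), for Vps29 without Trem2 KO DMSO replicate 2 or 3 or WT DMSO replicate 3 (adjusted p = 0.054 to 0.083) and for Vps26a without Trem2 KO DMSO replicate 2 or 3, WT BafA1 replicate 2 or WT DMSO replicate 1, 2 or 3 (adjusted p = 0.053 to 0.19), and that of Vps35 with BafA1 without Trem2 KO BafA1 replicate 2 or 3 or WT BafA1 replicate 1 (adjusted p = 0.075 to 0.14).

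Retriever uses Vps29 with its own scaffold Vps35l and arm Vps26c, and recycles integrins together with Snx17. Both genes of its own were higher in Trem2 KO with DMSO, where 13.8% of all genes were higher, but these are only 2 genes. Vps26c had 28.3, 31.4 and 34.3 CPM in Trem2 KO BafA1 and 46, 38.9 and 41 CPM in Trem2 KO DMSO. Vps26c in WT had 25.3, 28.3 and 31.1 CPM with BafA1 and 28.8, 29.8 and 27.7 CPM with DMSO. The 3 KO DMSO libraries stood above those of the other groups, and the gene fell with BafA1 in Trem2 KO (-0.43 ± 0.11, adjusted p = 0.0039), while its WT response was -0.03 ± 0.11, adjusted p = 0.87. The difference of these responses was -0.40 ± 0.16, adjusted p = 0.12. Between genotypes Vps26c differed by 0.14 ± 0.11 (adjusted p = 0.39) with BafA1 and 0.54 ± 0.11 (adjusted p = 0.00072) with DMSO. Vps35l averaged 51.2 ± 2.21 CPM in Trem2 KO BafA1 and 50.5 ± 1.79 CPM in Trem2 KO DMSO. Vps35l in WT averaged 46.5 ± 5.87 CPM with BafA1 and 37.5 ± 5.06 CPM with DMSO. It was 0.43 ± 0.11 (adjusted p = 0.0049) higher on the log2 scale in Trem2 KO with DMSO. Its increase with BafA1 in WT (0.31 ± 0.11, adjusted p = 0.022) was lost without WT BafA1 replicate 2 or WT DMSO replicate 1 or 3 (adjusted p = 0.059 to 0.12).

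HOPS joins late endosomes and autophagosomes to lysosomes, CORVET joins early endosomes, and both share the core Vps11, Vps16, Vps18 and Vps33a. In Trem2 KO 0 of the 8 genes of this group were higher after BafA1 and 2 (Vps16 and Vps39) lower, and in WT 3 (Vps11, Vps18 and Vps8) were higher and 0 lower. Between genotypes 0 passed the test in either direction with BafA1, and with DMSO 3 of the 8 (Vps11, Vps18 and Vps33a) were higher in Trem2 KO and 1 (Vps33b) lower. These are few genes: 2 of 8 is 25% and 3 of 8 is 37.5%, where with BafA1 19.8% of all genes were higher and 20.7% lower in Trem2 KO, and 21.6% higher and 25.3% lower in WT. Between genotypes with DMSO 13.8% of all genes were higher and 16.5% lower.

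Vps18, a core subunit with a RING domain, had 46.8, 48.5 and 44.2 CPM in Trem2 KO BafA1 and 42.3, 48.5 and 48.4 CPM in Trem2 KO DMSO. Vps18 in WT had 42.1, 47.7 and 43.4 CPM with BafA1 and 31.6, 31.7 and 35.8 CPM with DMSO. The 3 WT DMSO libraries were the lowest of the 12, and the other 3 groups overlapped one another. Its response to BafA1 was 0.00 ± 0.099 (adjusted p = 0.98) in Trem2 KO and 0.42 ± 0.099 (adjusted p = 0.0011) in WT, and its genotype difference 0.07 ± 0.096 (adjusted p = 0.66) with BafA1 and 0.49 ± 0.10 (adjusted p = 0.00073) with DMSO. Vps11, which scaffolds the core, had 27.2, 27.1 and 23.6 CPM in Trem2 KO BafA1 and 24.5, 28.2 and 25.9 CPM in Trem2 KO DMSO. Vps11 in WT had 26.5, 26 and 28.1 CPM with BafA1 and 17.1, 19.4 and 21.8 CPM with DMSO. Here too the 3 WT DMSO libraries were the lowest. Its response was -0.01 ± 0.12 (adjusted p = 0.95) in Trem2 KO and 0.46 ± 0.12 (adjusted p = 0.0033) in WT, and its genotype difference -0.04 ± 0.12 (adjusted p = 0.82) with BafA1 and 0.42 ± 0.12 (adjusted p = 0.012) with DMSO, a call lost with DMSO without Trem2 KO DMSO replicate 2 or WT DMSO replicate 1 (adjusted p = 0.055 to 0.061). Vps33a, the Sec1/Munc18 subunit that holds SNARE proteins, had 42, 42.1 and 36.4 CPM in Trem2 KO BafA1 and 46.9, 48.5 and 44.2 CPM in Trem2 KO DMSO. Vps33a in WT had 40.1, 43.3 and 39.4 CPM with BafA1 and 30.8, 37.2 and 38 CPM with DMSO. Its response did not pass the test in either genotype, -0.21 ± 0.10 (adjusted p = 0.12) in Trem2 KO and 0.21 ± 0.10 (adjusted p = 0.11) in WT, while it was higher in Trem2 KO with DMSO (0.39 ± 0.10, adjusted p = 0.0062).

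Vps8, the CORVET subunit that binds Rab5, was scarce and had 17.5, 10.2 and 13.4 CPM in Trem2 KO BafA1 and 8.78, 12 and 9.03 CPM in Trem2 KO DMSO. Vps8 in WT had 11.8, 14.1 and 11.6 CPM with BafA1 and 7.47, 8.09 and 5.64 CPM with DMSO. Its WT BafA1 libraries lay above its WT DMSO libraries (0.84 ± 0.21, adjusted p = 0.0022), and its libraries overlapped in Trem2 KO (0.48 ± 0.21, adjusted p = 0.069). Vps39, a HOPS subunit, had 13.6, 17 and 19.2 CPM in Trem2 KO BafA1 and 26.3, 25.2 and 22.4 CPM in Trem2 KO DMSO. Vps39 in WT had 19, 17.3 and 20.5 CPM with BafA1 and 24.8, 20.6 and 18.4 CPM with DMSO. It fell with BafA1 in Trem2 KO, where the groups did not overlap (-0.59 ± 0.15, adjusted p = 0.0029), and its WT response was -0.16 ± 0.14, adjusted p = 0.4. Vps16 had 12.5, 11.4 and 12.3 CPM in Trem2 KO BafA1 and 17.6, 18.5 and 15 CPM in Trem2 KO DMSO. Vps16 in WT had 12.4, 13.8 and 15.6 CPM with BafA1 and 17.1, 11.3 and 15.3 CPM with DMSO. It fell in Trem2 KO as well (-0.50 ± 0.17, adjusted p = 0.02), a call lost without Trem2 KO BafA1 replicate 2 or Trem2 KO DMSO replicate 1 or 2 (adjusted p = 0.064 to 0.093). Vps33b, which works with Vipas39 outside HOPS, had 13.4, 14.4 and 12.5 CPM in Trem2 KO BafA1 and 11.3, 10.1 and 12 CPM in Trem2 KO DMSO. Vps33b in WT had 21.8, 17.1 and 16.3 CPM with BafA1 and 12.6, 16.2 and 21.1 CPM with DMSO. Its KO DMSO libraries lay below its WT DMSO libraries (-0.60 ± 0.18, adjusted p = 0.015), a call lost without Trem2 KO DMSO replicate 2 or WT DMSO replicate 3 (adjusted p = 0.08 to 0.15). Vps41, another subunit of HOPS, passed no test.

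Promoters of HOPS genes are shown because lysosomal genes are known to carry a CACGTG-type site (the CLEAR element) bound by TFEB and its relatives. The 250 bases before the annotated start were searched on both strands for CACGTG and, as a stricter form that contains it, TCACGTG. The RefSeq promoter table held 49 of the 75 genes. A gene was counted if any of its promoters held the letters. CACGTG was in 6 of the 49 (12.2%: Snx5, Snx8, Snx18, Vps16, Vps26a and Vps33a), beside 1854 of 27025 genes in the table (6.86%). TCACGTG was in 3 of the 49 (6.12%: Vps16, Vps26a and Vps33a), beside 968 of the 27025 genes (3.58%). The sequences below are from RefSeq on GRCm38.p6, 5′ to 3′ on the strand of the gene, and capitals mark the match with its mirrored flank, whose first base is at position -19 from the start of Vps16. Vps16 (chr2:130424070-130424319, plus strand) is shown as a core gene with a match, and Vps18 (chr2:119288492-119288741, plus strand) as a core gene without one. Vps33a also holds a match, and its responses did not pass the test in either genotype. No relation between a match and a response was tested.
Vps16: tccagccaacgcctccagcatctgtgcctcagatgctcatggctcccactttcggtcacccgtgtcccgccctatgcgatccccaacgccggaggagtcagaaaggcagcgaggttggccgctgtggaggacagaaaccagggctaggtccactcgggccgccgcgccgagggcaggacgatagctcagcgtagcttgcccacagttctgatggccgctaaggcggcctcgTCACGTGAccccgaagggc
Vps18: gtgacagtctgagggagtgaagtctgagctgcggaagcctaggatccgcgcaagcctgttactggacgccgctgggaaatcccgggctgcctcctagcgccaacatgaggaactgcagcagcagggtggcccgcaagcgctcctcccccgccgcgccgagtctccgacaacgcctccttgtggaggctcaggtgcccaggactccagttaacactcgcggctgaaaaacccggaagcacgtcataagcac
A match is letters in a window and no measure of binding.

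GARP tethers endosome-derived vesicles at the Golgi with Vps54, and EARP serves recycling endosomes with Vps50 in its place, around a shared core of Vps51, Vps52 and Vps53. With BafA1 2 of the 5 genes, both defining subunits, were higher in Trem2 KO than in WT and 1 (Vps52) was lower. Of all genes 12.5% were higher and 14.2% lower in that comparison. Vps54 had 31.9, 30.1 and 28 CPM in Trem2 KO BafA1 and 29.1, 23.5 and 26.6 CPM in Trem2 KO DMSO. Vps54 in WT had 18.1, 22.3 and 18.2 CPM with BafA1 and 18.1, 18 and 23.1 CPM with DMSO. Its KO libraries were above the WT libraries in both treatments, with differences of 0.62 ± 0.13 (adjusted p = 0.0014) with BafA1 and 0.40 ± 0.14 (adjusted p = 0.03) with DMSO, and the call with DMSO was lost without Trem2 KO DMSO replicate 1 or 3 or WT DMSO replicate 1 or 2 (adjusted p = 0.06 to 0.11). Vps50 had 65.9, 75.5 and 65.3 CPM in Trem2 KO BafA1 and 40.9, 51.3 and 58.8 CPM in Trem2 KO DMSO. Vps50 in WT had 46, 53.7 and 45.9 CPM with BafA1 and 40.4, 40.9 and 48.8 CPM with DMSO. The KO BafA1 libraries were the highest of the 12, with a response of 0.45 ± 0.12 (adjusted p = 0.0036) in Trem2 KO and 0.16 ± 0.12 (adjusted p = 0.29) in WT and a genotype difference of 0.50 ± 0.11 (adjusted p = 0.0025) with BafA1 and 0.21 ± 0.12 (adjusted p = 0.21) with DMSO. Of the core, Vps52 had 17.2, 20.6 and 18.3 CPM in Trem2 KO BafA1 and 21.9, 20.2 and 20.6 CPM in Trem2 KO DMSO. Vps52 in WT had 25.3, 23.3 and 22.9 CPM with BafA1 and 21.4, 24.1 and 21.4 CPM with DMSO. It was lower in Trem2 KO with BafA1 (-0.36 ± 0.12, adjusted p = 0.033), a call lost without Trem2 KO BafA1 replicate 1 or 3 or WT BafA1 replicate 1, 2 or 3 (adjusted p = 0.051 to 0.14), while Vps51 and Vps53 passed no test.

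Of 9 tested Chmp genes, the subunits of the ESCRT-III filament, 3 were higher and 1 lower after BafA1 in Trem2 KO, and 5 higher and 0 lower in WT. The share higher was 33.3% in Trem2 KO and 55.6% in WT, beside 19.8% of all genes in Trem2 KO and 21.6% in WT. The 10 Chmp genes together summed to 1600 ± 24.8 CPM in Trem2 KO BafA1, 1347 ± 36.9 CPM in Trem2 KO DMSO, 1634 ± 28.7 CPM in WT BafA1 and 1322 ± 33.7 CPM in WT DMSO. Chmp5, which binds the Vps4 cofactor Vta1, had 225, 235 and 229 CPM in Trem2 KO BafA1 and 148, 166 and 158 CPM in Trem2 KO DMSO. Chmp5 in WT had 254, 270.4 and 262 CPM with BafA1 and 189, 190.5 and 194 CPM with DMSO. BafA1 libraries lay above DMSO libraries in both genotypes, and KO libraries lay below WT libraries in both treatments. Its response was 0.54 ± 0.071 (adjusted p = 1.9e-06) in Trem2 KO and 0.45 ± 0.069 (adjusted p = 9.7e-06) in WT, and its genotype difference was -0.19 ± 0.069 (adjusted p = 0.042) with BafA1 and -0.28 ± 0.071 (adjusted p = 0.0042) with DMSO. The call with BafA1 was lost without Trem2 KO BafA1 replicate 1, 2 or 3, WT BafA1 replicate 1, 2 or 3 or WT DMSO replicate 2 (adjusted p = 0.053 to 0.13). Chmp3, which acts with Chmp2a late in filament assembly, had 338, 343 and 338 CPM in Trem2 KO BafA1 and 250.4, 264 and 272 CPM in Trem2 KO DMSO. Chmp3 in WT had 321, 304 and 304 CPM with BafA1 and 255, 245 and 265 CPM with DMSO. It rose in both genotypes without overlap, with responses of 0.37 ± 0.068 (adjusted p = 0.00011) in Trem2 KO and 0.28 ± 0.067 (adjusted p = 0.0016) in WT. Chmp4b, the bulk of the filament, averaged 569.5 ± 16.1 CPM in Trem2 KO BafA1 and 506 ± 34.1 CPM in Trem2 KO DMSO. Chmp4b in WT averaged 609 ± 20.3 CPM with BafA1 and 465 ± 19.3 CPM with DMSO. Its responses were 0.17 ± 0.07 (adjusted p = 0.059) in Trem2 KO and 0.39 ± 0.07 (adjusted p = 7.7e-05) in WT.

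Chmp1a and Chmp2a differed by genotype in opposite directions. Chmp2a had 85.5, 85.1 and 90.3 CPM in Trem2 KO BafA1 and 79.5, 76 and 78.9 CPM in Trem2 KO DMSO. Chmp2a in WT had 58.4, 60.9 and 55.1 CPM with BafA1 and 57, 57.3 and 64.5 CPM with DMSO. All 6 KO libraries were above all 6 WT libraries, with differences of 0.58 ± 0.082 (adjusted p = 2.3e-05) with BafA1 and 0.39 ± 0.084 (adjusted p = 0.0011) with DMSO, and BafA1 responses of 0.15 ± 0.082 (adjusted p = 0.15) in Trem2 KO and -0.04 ± 0.084 (adjusted p = 0.74) in WT. Chmp1a, which recruits Vps4, had 109.3, 114.4 and 107.7 CPM in Trem2 KO BafA1 and 105.6, 102.9 and 85.0 CPM in Trem2 KO DMSO. Chmp1a in WT had 167.6, 142.4 and 135.4 CPM with BafA1 and 106.5, 124.8 and 120.0 CPM with DMSO. KO libraries lay below WT libraries in each treatment, with differences of -0.43 ± 0.094 (adjusted p = 0.0019) with BafA1 and -0.26 ± 0.097 (adjusted p = 0.045) with DMSO. The call with DMSO was lost without Trem2 KO BafA1 replicate 1 or 2, Trem2 KO DMSO replicate 2 or 3, WT BafA1 replicate 2 or 3 or WT DMSO replicate 2 or 3 (adjusted p = 0.054 to 0.27). Its responses to BafA1 were 0.17 ± 0.098 (adjusted p = 0.17) in Trem2 KO and 0.34 ± 0.093 (adjusted p = 0.0045) in WT. Chmp2b rose in both genotypes, with responses of 0.31 ± 0.082 (adjusted p = 0.0039) in Trem2 KO and 0.20 ± 0.082 (adjusted p = 0.047) in WT. The WT call was lost without WT BafA1 replicate 1, 2 or 3 or WT DMSO replicate 2 or 3 (adjusted p = 0.051 to 0.12). Its genotype differences were 0.27 ± 0.081 (adjusted p = 0.018) with BafA1 and 0.15 ± 0.083 (adjusted p = 0.17) with DMSO. The call with BafA1 was lost without Trem2 KO BafA1 replicate 3 or WT BafA1 replicate 1 or 2 (adjusted p = 0.051 to 0.13). Chmp1b fell in Trem2 KO (-0.25 ± 0.098, adjusted p = 0.047), which was lost without Trem2 KO BafA1 replicate 1 or 2, Trem2 KO DMSO replicate 1, 2 or 3, WT BafA1 replicate 2 or 3 or WT DMSO replicate 1, 2 or 3 (adjusted p = 0.051 to 0.2). Chmp6, which starts filaments from ESCRT-II, and Chmp7, which acts at the nuclear envelope, passed no test.

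ESCRT-I gathers ubiquitinated cargo through Tsg101, Vps28 and 1 of the Vps37 proteins. Vps37a, the most abundant Vps37 gene, rose with BafA1, with responses of 0.31 ± 0.093 (adjusted p = 0.0096) in Trem2 KO and 0.29 ± 0.088 (adjusted p = 0.0082) in WT. The call in Trem2 KO was lost without Trem2 KO BafA1 replicate 1 or Trem2 KO DMSO replicate 3 (adjusted p = 0.053). Vps37b had 10.7, 10.4 and 13.9 CPM in Trem2 KO BafA1 and 15.5, 15.7 and 17.4 CPM in Trem2 KO DMSO. Vps37b in WT had 12.9, 10.7 and 12.7 CPM with BafA1 and 12.4, 12.8 and 12.5 CPM with DMSO. It fell in Trem2 KO without overlap (-0.49 ± 0.16, adjusted p = 0.017), a call lost without Trem2 KO BafA1 replicate 1 or 2 or Trem2 KO DMSO replicate 3 (adjusted p = 0.066 to 0.084), and in WT the libraries overlapped (-0.06 ± 0.15, adjusted p = 0.79). Vps28 rose in Trem2 KO by 0.33 ± 0.091 (adjusted p = 0.006), a call lost without Trem2 KO BafA1 replicate 1 (adjusted p = 0.056), and its WT value was 0.10 ± 0.088 (adjusted p = 0.38). Vps37c rose in WT by 0.28 ± 0.11 (adjusted p = 0.044), lost without WT BafA1 replicate 1 or 2 or WT DMSO replicate 1, 2 or 3 (adjusted p = 0.061 to 0.14), and was 0.37 ± 0.12 (adjusted p = 0.017) higher in Trem2 KO with DMSO. The ESCRT-II genes Vps25 and Vps36, and Vps4a and Vps4b, the ATPases that take the filament apart, passed no test in any comparison. Their log2 values lay between -0.25 and 0.14.

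The Vps13 proteins are bridges that move lipids between membranes. Vps13a had 43.3, 36.3 and 44.2 CPM in Trem2 KO BafA1 and 53.4, 46.2 and 55.3 CPM in Trem2 KO DMSO. Vps13a in WT had 38.1, 43.6 and 42.2 CPM with BafA1 and 57.4, 59.5 and 54.7 CPM with DMSO. Its BafA1 libraries lay below its DMSO libraries in both genotypes, with responses of -0.32 ± 0.10 (adjusted p = 0.018) in Trem2 KO and -0.47 ± 0.1 (adjusted p = 0.00048) in WT. The call in Trem2 KO was lost without Trem2 KO BafA1 replicate 2 or Trem2 KO DMSO replicate 1 or 3 (adjusted p = 0.081 to 0.14). Vps13b fell in WT (-0.29 ± 0.11, adjusted p = 0.036), a call lost without Trem2 KO BafA1 replicate 2, Trem2 KO DMSO replicate 1, 2 or 3, WT BafA1 replicate 1, 2 or 3 or WT DMSO replicate 2 or 3 (adjusted p = 0.056 to 0.19). Vps13c rose in Trem2 KO (0.31 ± 0.11, adjusted p = 0.034), a call lost without Trem2 KO BafA1 replicate 1 or 3 or Trem2 KO DMSO replicate 2 or 3 (adjusted p = 0.054 to 0.11), and Vps13d passed no test. Genotype differences of the 4 genes did not pass the test with either treatment.

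**Figure D3:**
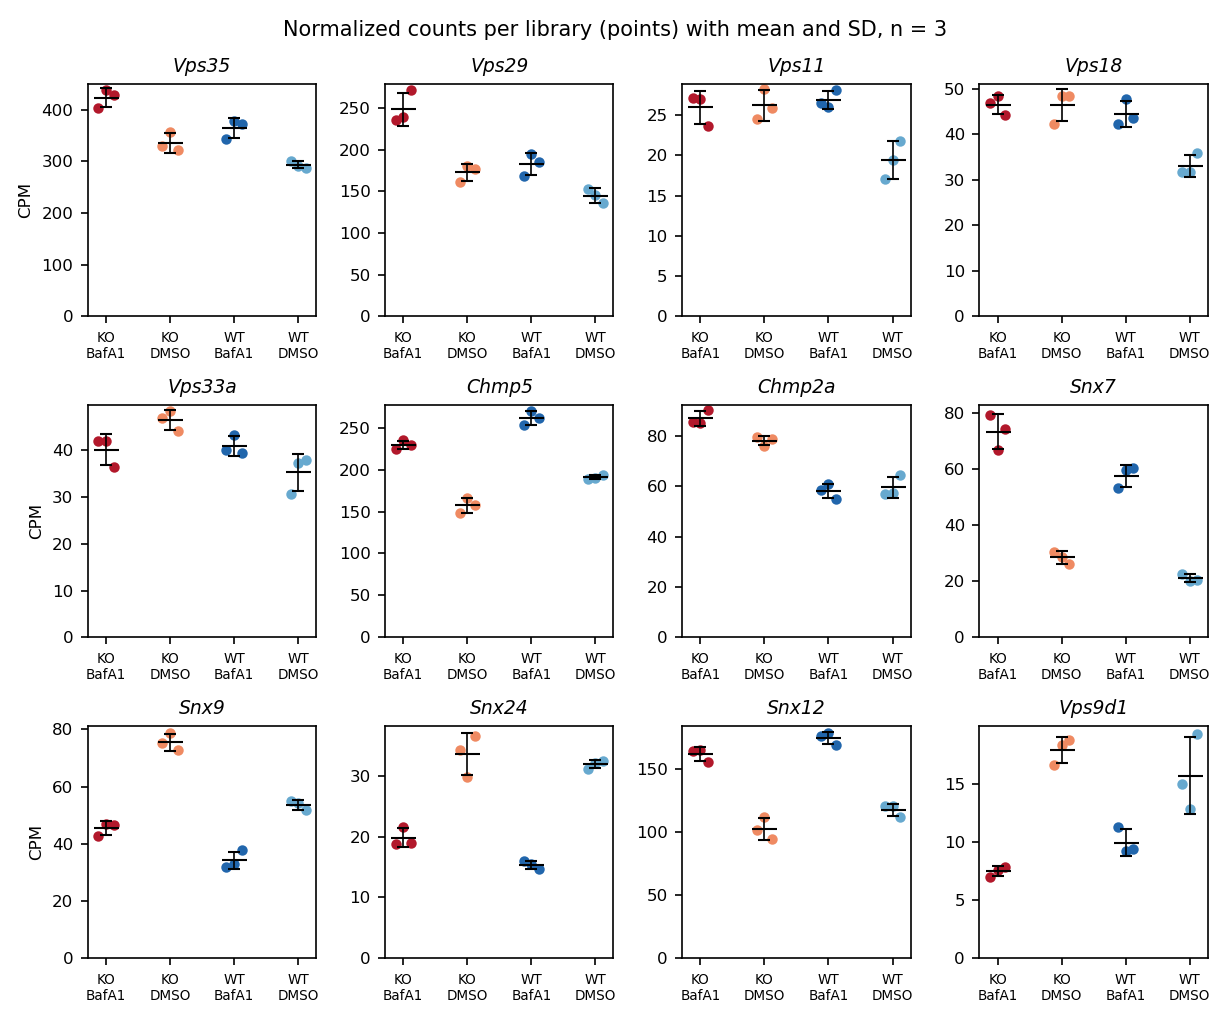
Normalized counts (CPM, axis from 0) of 12 genes are plotted for each library as points, with the group mean and SD (n = 3) as black marks. Vps11 and Vps18 are lowest in WT DMSO, Chmp2a is higher in all 6 KO libraries than in all 6 WT libraries, and Snx7, Snx9 and Snx24 separate by treatment in both genotypes.

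Among the sorting nexins that carry a curved BAR domain and shape tubules, 2 of 12 rose and 4 fell with BafA1 in Trem2 KO, and 5 rose and 3 fell in WT, where 19.8% of all genes rose and 20.7% fell in Trem2 KO and 21.6% rose and 25.3% fell in WT. Snx7, which pairs with Snx4 in recycling and autophagy, had 79.2, 66.7 and 74.3 CPM in Trem2 KO BafA1 and 30.5, 28.8 and 26.2 CPM in Trem2 KO DMSO. Snx7 in WT had 53.2, 59.5 and 60.3 CPM with BafA1 and 22.6, 20.2 and 20.5 CPM with DMSO. Every BafA1 library was above every DMSO library by more than the spread of either group. Its response of 1.37 ± 0.10 (adjusted p = 4.6e-10) in Trem2 KO and 1.46 ± 0.10 (adjusted p = 1.2e-10) in WT was the largest increase of the 71 genes, a fold of 2.58 in Trem2 KO and 2.74 in WT. KO libraries also lay above WT libraries, with differences of 0.35 ± 0.092 (adjusted p = 0.0074) with BafA1 and 0.44 ± 0.12 (adjusted p = 0.0061) with DMSO. The call with BafA1 was lost without WT BafA1 replicate 1 (adjusted p = 0.053). Snx30, the other partner of Snx4, averaged 61.1 ± 2.35 CPM in Trem2 KO BafA1 and 61.3 ± 2.37 CPM in Trem2 KO DMSO. Snx30 in WT averaged 61.4 ± 5.85 CPM with BafA1 and 52 ± 3.9 CPM with DMSO. Snx4 itself passed no test. The Snx30 response was 0.00 ± 0.093 (adjusted p = 1) in Trem2 KO and 0.24 ± 0.092 (adjusted p = 0.038) in WT, and the WT call was lost without WT BafA1 replicate 3 or WT DMSO replicate 1 or 3 (adjusted p = 0.087 to 0.16).

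Snx1 or Snx2 pairs with Snx5 or Snx6 in the coat that returns the mannose 6-phosphate receptor, and the 4 genes moved in different directions with BafA1. Snx1 had 264, 329.5 and 329 CPM in Trem2 KO BafA1 and 218, 249 and 226 CPM in Trem2 KO DMSO. Snx1 in WT had 336, 329 and 326 CPM with BafA1 and 259.6, 247 and 298 CPM with DMSO. It rose in both genotypes without overlap, with responses of 0.41 ± 0.09 (adjusted p = 0.00088) in Trem2 KO and 0.30 ± 0.089 (adjusted p = 0.0077) in WT. Snx2 had 82.7, 92.3 and 106 CPM in Trem2 KO BafA1 and 119, 105 and 111 CPM in Trem2 KO DMSO. Snx2 in WT had 78.7, 80.5 and 86.9 CPM with BafA1 and 98.6, 105 and 103 CPM with DMSO. It fell, with responses of -0.26 ± 0.09 (adjusted p = 0.024) in Trem2 KO and -0.32 ± 0.089 (adjusted p = 0.0052) in WT, with overlapping libraries in Trem2 KO, where the call was lost without Trem2 KO BafA1 replicate 1 or 2 or Trem2 KO DMSO replicate 1 or 3 (adjusted p = 0.051 to 0.19). Snx5 had 529, 546 and 596 CPM in Trem2 KO BafA1 and 621, 678 and 677 CPM in Trem2 KO DMSO. Snx5 in WT had 559, 542 and 542 CPM with BafA1 and 782, 799 and 787 CPM with DMSO. It fell in both genotypes, with responses of -0.24 ± 0.069 (adjusted p = 0.0071) in Trem2 KO and -0.53 ± 0.069 (adjusted p = 1.1e-06) in WT, and differed between genotypes by 0.02 ± 0.069 (adjusted p = 0.83) with BafA1 and -0.26 ± 0.069 (adjusted p = 0.0052) with DMSO. The call with DMSO was lost without Trem2 KO DMSO replicate 1 (adjusted p = 0.058). Snx6 had 113, 126 and 119.9 CPM in Trem2 KO BafA1 and 147, 140.3 and 154 CPM in Trem2 KO DMSO. Snx6 in WT had 95.8, 92.8 and 92.1 CPM with BafA1 and 100.4, 105 and 109.5 CPM with DMSO. Its KO libraries were above the WT libraries in both treatments, with differences of 0.35 ± 0.076 (adjusted p = 0.0017) with BafA1 and 0.48 ± 0.076 (adjusted p = 3.3e-05) with DMSO, and it fell in Trem2 KO, with responses of -0.30 ± 0.076 (adjusted p = 0.0029) in Trem2 KO and -0.17 ± 0.077 (adjusted p = 0.078) in WT.

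Snx9, Snx18 and Snx33 carry an SH3 domain and act in endocytosis. Snx9 had 42.6, 47.1 and 46.5 CPM in Trem2 KO BafA1 and 75.1, 78.6 and 72.7 CPM in Trem2 KO DMSO. Snx9 in WT had 31.9, 33.1 and 37.7 CPM with BafA1 and 55.1, 54.2 and 51.8 CPM with DMSO. BafA1 libraries were below DMSO libraries in both genotypes, and KO libraries were above WT libraries in both treatments. Its response was -0.74 ± 0.091 (adjusted p = 7.9e-07) in Trem2 KO and -0.65 ± 0.093 (adjusted p = 4.5e-06) in WT, and its genotype difference 0.40 ± 0.096 (adjusted p = 0.0033) with BafA1 and 0.49 ± 0.089 (adjusted p = 0.00016) with DMSO. Snx18 rose in WT, with responses of 0.04 ± 0.088 (adjusted p = 0.77) in Trem2 KO and 0.28 ± 0.088 (adjusted p = 0.01) in WT, and was higher in Trem2 KO with DMSO (0.37 ± 0.089, adjusted p = 0.0029). Snx33 was scarce and rose in WT (0.68 ± 0.26, adjusted p = 0.035), a call lost without WT BafA1 replicate 1 or 3 or WT DMSO replicate 1 or 3 (adjusted p = 0.055 to 0.1). Snx8, which binds endosomes and is linked to Golgi retrieval, and Snx32, a relative of Snx5 and Snx6 at 2.21 CPM in WT DMSO, passed no test.

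Snx27, a retromer adaptor with PDZ and FERM domains, had 157, 178 and 176 CPM in Trem2 KO BafA1 and 169, 195 and 161 CPM in Trem2 KO DMSO. Snx27 in WT had 122, 123 and 144 CPM with BafA1 and 105, 120.1 and 113 CPM with DMSO. KO libraries lay above WT libraries in both treatments, with differences of 0.39 ± 0.09 (adjusted p = 0.0026) with BafA1 and 0.64 ± 0.091 (adjusted p = 1.1e-05) with DMSO, and its BafA1 responses of -0.04 ± 0.089 (adjusted p = 0.75) in Trem2 KO and 0.20 ± 0.091 (adjusted p = 0.075) in WT did not pass the test. Snx17, the retriever adaptor with a FERM domain, passed no test. Snx13, Snx14, Snx19 and Snx25 form the nexin family named after the RGS domain, and sit in the endoplasmic reticulum at contacts with other organelles. Snx14 had 38.4, 33.7 and 31.7 CPM in Trem2 KO BafA1 and 33.3, 30.0 and 35.2 CPM in Trem2 KO DMSO. Snx14 in WT had 31.7, 30.2 and 28 CPM with BafA1 and 34, 40.6 and 41.5 CPM with DMSO. It fell in WT (-0.38 ± 0.11, adjusted p = 0.0079), a call lost without WT BafA1 replicate 3 or WT DMSO replicate 3 (adjusted p = 0.053 to 0.056), and its value in Trem2 KO was 0.09 ± 0.12, adjusted p = 0.57. Snx19 rose in WT (0.38 ± 0.14, adjusted p = 0.031), a call lost without WT BafA1 replicate 1 or WT DMSO replicate 2 or 3 (adjusted p = 0.05 to 0.14), with -0.26 ± 0.15, adjusted p = 0.18 in Trem2 KO. Snx13 and Snx25 passed no test.

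The nexins built mainly of the PX domain, which binds phosphoinositides, held the largest decreases of the set in WT, those of Snx24 and Snx29. Snx24 had 18.8, 21.6 and 19 CPM in Trem2 KO BafA1 and 34.2, 29.8 and 36.6 CPM in Trem2 KO DMSO. Snx24 in WT had 15.9, 15.5 and 14.6 CPM with BafA1 and 31.2, 32 and 32.5 CPM with DMSO. The BafA1 libraries were all below the DMSO libraries, with responses of -0.76 ± 0.12 (adjusted p = 2e-05) in Trem2 KO and -1.05 ± 0.12 (adjusted p = 1.2e-07) in WT. With BafA1 its KO libraries were above its WT libraries (0.36 ± 0.13, adjusted p = 0.037), a call lost without Trem2 KO BafA1 replicate 2 or 3 or WT BafA1 replicate 1, 2 or 3 (adjusted p = 0.059 to 0.14). Snx29, which also has a RUN domain, had 11.6, 12.2 and 14.1 CPM in Trem2 KO BafA1 and 16.9, 19.1 and 17.6 CPM in Trem2 KO DMSO. Snx29 in WT had 8.89, 7.82 and 11.6 CPM with BafA1 and 12, 22.1 and 21.8 CPM with DMSO. It fell in both genotypes, with responses of -0.51 ± 0.20 (adjusted p = 0.044) in Trem2 KO and -1.01 ± 0.20 (adjusted p = 0.00019) in WT. The call in Trem2 KO was lost without Trem2 KO BafA1 replicate 1 or 2, Trem2 KO DMSO replicate 1, 2 or 3 or WT BafA1 replicate 1 (adjusted p = 0.056 to 0.15). Snx12, a close relative of Snx3, had 164, 165 and 156 CPM in Trem2 KO BafA1 and 101, 112 and 94.2 CPM in Trem2 KO DMSO. Snx12 in WT had 176, 178 and 169 CPM with BafA1 and 120.2, 120.3 and 112 CPM with DMSO. It rose in both genotypes without overlap, with responses of 0.66 ± 0.079 (adjusted p = 5.2e-07) in Trem2 KO and 0.57 ± 0.076 (adjusted p = 1.6e-06) in WT. Snx3, which takes Wntless to retromer, averaged 259 ± 21.6 CPM in Trem2 KO BafA1 and 286 ± 3.95 CPM in Trem2 KO DMSO. Snx3 in WT averaged 211 ± 33.7 CPM with BafA1 and 256 ± 36.9 CPM with DMSO. It fell in WT (-0.27 ± 0.10, adjusted p = 0.038), a call lost without Trem2 KO BafA1 replicate 1 or 2, Trem2 KO DMSO replicate 1, 2 or 3, WT BafA1 replicate 1 or WT DMSO replicate 1 or 2 (adjusted p = 0.052 to 0.34), and its value in Trem2 KO was -0.15 ± 0.10, adjusted p = 0.29. With BafA1 Snx3 was 0.29 ± 0.11 (adjusted p = 0.044) higher in Trem2 KO, a call lost without Trem2 KO BafA1 replicate 1 or 3, Trem2 KO DMSO replicate 1, 2 or 3, WT BafA1 replicate 1 or WT DMSO replicate 2 (adjusted p = 0.05 to 0.28).

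Snx10, needed by osteoclasts for acid secretion, had 181, 169 and 199.6 CPM in Trem2 KO BafA1 and 131, 139 and 113 CPM in Trem2 KO DMSO. Snx10 in WT had 127, 138 and 143 CPM with BafA1 and 95, 105 and 102 CPM with DMSO. Its BafA1 libraries were above its DMSO libraries in both genotypes, and its KO libraries above its WT libraries in both treatments. The responses were 0.51 ± 0.087 (adjusted p = 5.7e-05) in Trem2 KO and 0.44 ± 0.088 (adjusted p = 0.00028) in WT, and the genotype differences 0.43 ± 0.086 (adjusted p = 0.00085) with BafA1 and 0.35 ± 0.09 (adjusted p = 0.0045) with DMSO. Snx16, an endosomal nexin with a coiled coil, had 95.7, 124 and 126 CPM in Trem2 KO BafA1 and 113, 144 and 118 CPM in Trem2 KO DMSO. Snx16 in WT had 76.8, 80.3 and 83 CPM with BafA1 and 86.3, 94.8 and 92 CPM with DMSO. It was higher in Trem2 KO with both treatments, with differences of 0.52 ± 0.10 (adjusted p = 0.00086) with BafA1 and 0.46 ± 0.10 (adjusted p = 0.0015) with DMSO. Snx15, which has a MIT domain, had 12.2, 16 and 9.26 CPM in Trem2 KO BafA1 and 11.8, 20.6 and 12 CPM in Trem2 KO DMSO. Snx15 in WT had 10.9, 12.3 and 11.6 CPM with BafA1 and 7.47, 9.1 and 9.49 CPM with DMSO. It was higher in Trem2 KO with DMSO (0.78 ± 0.22, adjusted p = 0.0093), a call lost without Trem2 KO DMSO replicate 2 (adjusted p = 0.15), and with BafA1 the genotypes overlapped (0.11 ± 0.21, adjusted p = 0.75). Snx11 rose in both genotypes, with responses of 0.37 ± 0.14 (adjusted p = 0.037) in Trem2 KO and 0.37 ± 0.14 (adjusted p = 0.027) in WT. Both calls were lost with single libraries left out, in Trem2 KO without Trem2 KO BafA1 replicate 2 or 3 or Trem2 KO DMSO replicate 1 or 3 (adjusted p = 0.08 to 0.17) and in WT without WT BafA1 replicate 1 or 3 or WT DMSO replicate 1 or 3 (adjusted p = 0.065 to 0.1). Snx20, which binds a selectin ligand, and Snx21 passed no test.

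Of the Vps genes outside these complexes, Vps9d1, which has a domain found in activators of Rab5, had 7.01, 7.61 and 7.87 CPM in Trem2 KO BafA1 and 16.6, 18.3 and 18.8 CPM in Trem2 KO DMSO. Vps9d1 in WT had 11.2, 9.17 and 9.38 CPM with BafA1 and 14.9, 12.8 and 19.3 CPM with DMSO. It fell in both genotypes without overlap, with responses of -1.26 ± 0.18 (adjusted p = 5.6e-06) in Trem2 KO and -0.67 ± 0.17 (adjusted p = 0.002) in WT. Vps45, a Sec1/Munc18 protein of early endosomes, lay under 10 CPM on average in each group and was higher in Trem2 KO, with differences of 0.66 ± 0.20 (adjusted p = 0.02) with BafA1 and 0.65 ± 0.20 (adjusted p = 0.019) with DMSO, calls lost without Trem2 KO BafA1 replicate 2 or WT BafA1 replicate 1 or 2 (adjusted p = 0.072 to 0.11) for BafA1 and without Trem2 KO DMSO replicate 1 or WT DMSO replicate 1 or 2 (adjusted p = 0.053 to 0.058) for DMSO. The chromatin subunit Vps72 had 61.1, 62.9 and 59.3 CPM in Trem2 KO BafA1 and 44.4, 56.5 and 44.7 CPM in Trem2 KO DMSO. Vps72 in WT had 71.5, 71.1 and 65.8 CPM with BafA1 and 49.5, 51.2 and 50.4 CPM with DMSO. It rose in both genotypes without overlap, with responses of 0.33 ± 0.098 (adjusted p = 0.0098) in Trem2 KO and 0.46 ± 0.093 (adjusted p = 0.00026) in WT.

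Whether Trem2 KO cells responded to BafA1 otherwise than WT cells was tested as the difference of the 2 responses (Trem2 KO minus WT). By edgeR 0 of 71 genes passed, where 8.81% of all genes were called (4.88% higher and 3.93% lower), and 0 passed by DESeq2 or limma-voom. At an unadjusted p under 0.05 there were 13 genes, 18.3% of the 71, beside 23.6% of all genes. The lowest adjusted p was that of Snx19, -0.64 ± 0.20, adjusted p = 0.055. The next were Vps18 with -0.42 ± 0.14 (adjusted p = 0.063), Snx5 with 0.28 ± 0.097 (adjusted p = 0.069), Snx14 with 0.47 ± 0.16 (adjusted p = 0.073), Vps33a with -0.41 ± 0.15 (adjusted p = 0.081) and Vps11 with -0.47 ± 0.17 (adjusted p = 0.092). So the genes called in only 1 genotype, among them Vps11, Vps18, Vps16 and Vps39, were not shown to respond differently. Snx19 passed with RLE factors (adjusted p = 0.049), and Snx19 and Vps18 passed with a filter of 10 CPM in 3 libraries (adjusted p = 0.042 and 0.046). Snx5 and Snx19 passed with the replicate number as a block within each genotype (adjusted p = 0.04 and 0.047). With 1 library left out, Vps18 passed without WT DMSO replicate 3 (adjusted p = 0.04) or Trem2 KO DMSO replicate 1 (adjusted p = 0.042), Snx19 without WT BafA1 replicate 2 (adjusted p = 0.039) or Trem2 KO DMSO replicate 2 (adjusted p = 0.045), Vps9d1 without WT DMSO replicate 3 (adjusted p = 0.043) and Snx33 without Trem2 KO BafA1 replicate 2 (adjusted p = 0.012).

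**Figure D4:**
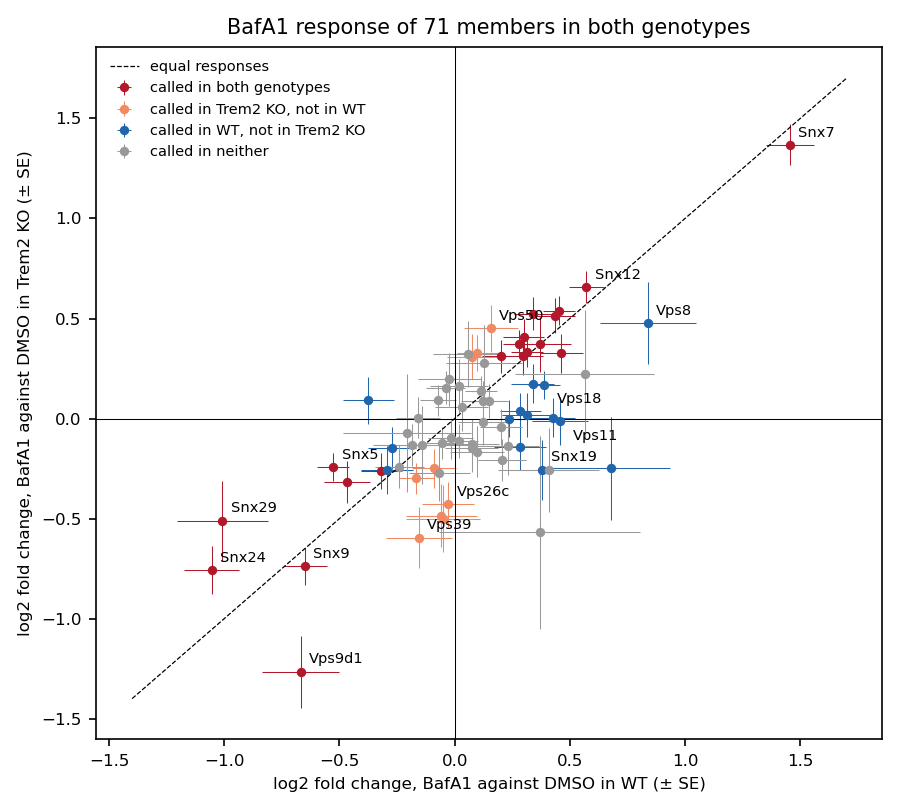
Each point is 1 of 71 genes, with its log2 response to BafA1 in WT (x axis) and in Trem2 KO (y axis), bars of 1 SE and the line of equal responses, coloured by where it was called. Snx7 lies near the line at the upper right (1.37 in Trem2 KO and 1.46 in WT), while Vps11 and Vps18 lie near 0 in Trem2 KO and at 0.46 and 0.42 in WT.

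Paralogs that can stand in for each other are set side by side here as the share of 1 gene in the summed CPM of its small family, which is a description with no test. Snx7 made up 54.5% ± 1.73 in Trem2 KO BafA1, 31.7% ± 2.5 in Trem2 KO DMSO, 48.5% ± 2.57 in WT BafA1 and 28.9% ± 2.59 in WT DMSO of Snx7 and Snx30 (mean ± SD, n = 3). The BafA1 libraries lay above the DMSO libraries in both genotypes. Snx12 made up 38.5% ± 2.65 in Trem2 KO BafA1, 26.3% ± 1.88 in Trem2 KO DMSO, 45.5% ± 4.44 in WT BafA1 and 31.7% ± 2.37 in WT DMSO of Snx3 and Snx12, again with the BafA1 libraries higher. Snx1 made up 76.6% ± 1.31 in Trem2 KO BafA1, 67.3% ± 2.85 in Trem2 KO DMSO, 80.1% ± 1.05 in WT BafA1 and 72.3% ± 2.11 in WT DMSO of Snx1 and Snx2. Snx9 made up 31.4% ± 1.75 in Trem2 KO BafA1, 43.5% ± 2.67 in Trem2 KO DMSO, 26.8% ± 1.71 in WT BafA1 and 41.8% ± 1.4 in WT DMSO of the SH3 nexins, with the BafA1 libraries lower in both genotypes. Vps37a was 58.1% ± 4.93 in Trem2 KO BafA1, 48.6% ± 3.1 in Trem2 KO DMSO, 60.6% ± 0.0691 in WT BafA1 and 59% ± 1.42 in WT DMSO of the Vps37 genes, lowest in Trem2 KO DMSO. Vps4b was 91.4% ± 1.37 in Trem2 KO BafA1, 89.8% ± 0.889 in Trem2 KO DMSO, 91.4% ± 0.741 in WT BafA1 and 91.2% ± 0.507 in WT DMSO of the Vps4 pair, and there the groups overlapped.

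**Figure D5:**
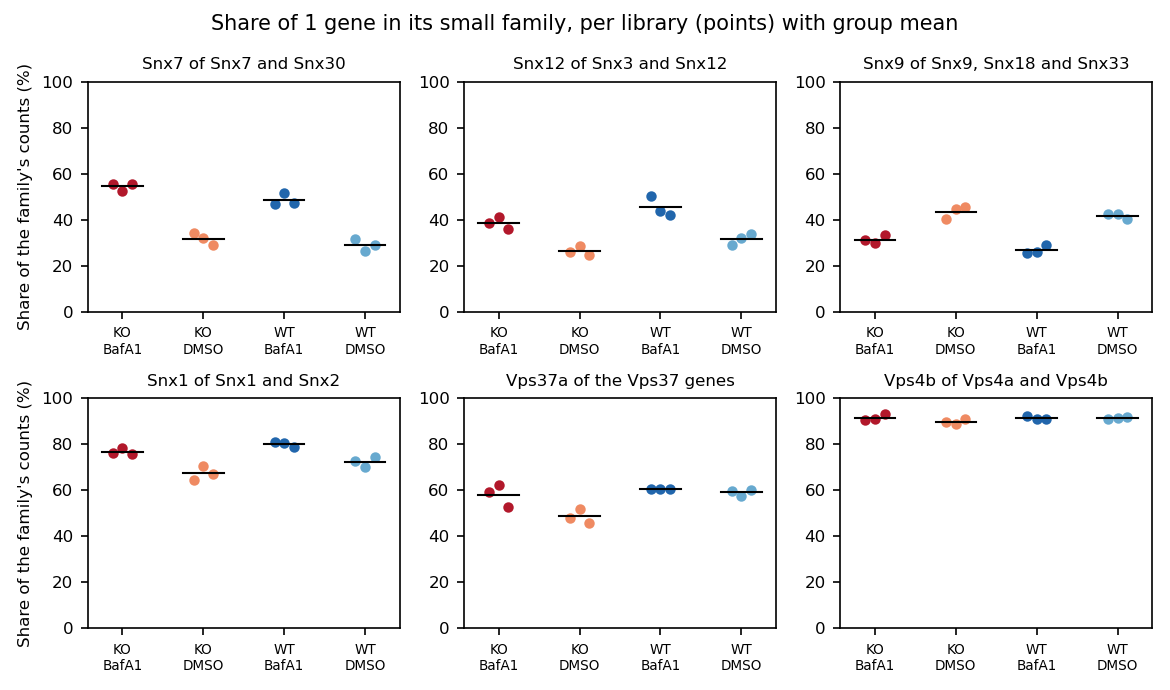
Points are the percent of a small family's summed CPM held by 1 gene in each library (axis from 0 to 100), with a line at the group mean (n = 3). The shares of Snx7, Snx12 and Snx1 are higher and that of Snx9 lower with BafA1 in both genotypes, while Vps4b stays between 89.8% and 91.4% on average.

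Other genes of the same pathway were taken from 5 lists, 77 of 79 genes being tested. Their counts stand beside these shares of all genes: with BafA1 19.8% rose and 20.7% fell in Trem2 KO and 21.6% rose and 25.3% fell in WT, and by genotype 12.5% were higher and 14.2% lower with BafA1, and 13.8% higher and 16.5% lower with DMSO. In the difference of responses 4.88% of all genes were higher and 3.93% lower. There 0 of 14 ESCRT-0 and partner genes were higher and 1 lower, and 0 of 20 WASH and Commander genes higher and 2 lower. None of the tethers, SNAREs and phosphoinositide enzymes was called, and 1 of 11 receptors was higher and 2 lower. Of 14 genes of ESCRT-0 and ESCRT partners, 2 rose and 2 fell with BafA1 in Trem2 KO and 4 rose and 1 fell in WT, while 3 were higher and 1 lower in Trem2 KO with BafA1, and 8 higher and 0 lower with DMSO. Of 20 partners of retromer and retriever in the WASH and Commander complexes, 6 rose and 3 fell with BafA1 in Trem2 KO and 5 rose and 4 fell in WT, and 7 were higher and 1 lower in Trem2 KO with BafA1, and 5 higher and 2 lower with DMSO. Commd9, a Commander subunit, rose in both genotypes, with responses of 0.73 ± 0.13 (adjusted p = 0.00011) in Trem2 KO and 1.29 ± 0.14 (adjusted p = 9.1e-08) in WT. It was higher in Trem2 KO with both treatments, with differences of 0.36 ± 0.12 (adjusted p = 0.035) with BafA1 and 0.92 ± 0.15 (adjusted p = 5.9e-05) with DMSO. The call with BafA1 was lost without Trem2 KO BafA1 replicate 1 or 2 or WT BafA1 replicate 1, 2 or 3 (adjusted p = 0.055 to 0.12). Washc2, a WASH subunit that binds Vps35, was higher in Trem2 KO with both treatments, with differences of 0.31 ± 0.085 (adjusted p = 0.0093) with BafA1 and 0.91 ± 0.089 (adjusted p = 4.6e-08) with DMSO. Its responses to BafA1 were -0.11 ± 0.085 (adjusted p = 0.31) in Trem2 KO and 0.48 ± 0.089 (adjusted p = 9.9e-05) in WT, and they differed between the genotypes by -0.60 ± 0.12 (adjusted p = 0.0035). Ptpn23, an ESCRT adaptor, had responses of -0.33 ± 0.18 (adjusted p = 0.14) in Trem2 KO and 0.55 ± 0.17 (adjusted p = 0.013) in WT, the call in WT being lost without WT BafA1 replicate 3 (adjusted p = 0.053), and genotype differences of -0.21 ± 0.17 (adjusted p = 0.38) with BafA1 and 0.67 ± 0.18 (adjusted p = 0.0067) with DMSO. Its responses differed by -0.88 ± 0.25 (adjusted p = 0.03), a call lost by DESeq2 (adjusted p = 0.056) and without Trem2 KO BafA1 replicate 1 or 3, Trem2 KO DMSO replicate 1, WT BafA1 replicate 2 or 3 or WT DMSO replicate 1 or 2 (adjusted p = 0.052 to 0.076).

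Of 20 tested endosomal tethers and SNAREs, 5 rose and 4 fell with BafA1 in Trem2 KO and 6 rose and 4 fell in WT, and 2 were higher and 2 lower in Trem2 KO with BafA1, and 4 higher and 3 lower with DMSO. Vamp4, a Golgi and endosome SNARE, rose with BafA1, with responses of 1.02 ± 0.073 (adjusted p = 2.1e-10) in Trem2 KO and 0.86 ± 0.072 (adjusted p = 1.2e-09) in WT. Its genotype differences were 0.24 ± 0.069 (adjusted p = 0.012) with BafA1 and 0.09 ± 0.075 (adjusted p = 0.42) with DMSO. The call with BafA1 was lost without WT BafA1 replicate 3 (adjusted p = 0.06). Of 12 phosphoinositide enzymes, 3 rose and 3 fell in either genotype, and 1 was higher and 0 lower in Trem2 KO with BafA1, and 4 higher and 2 lower with DMSO. Inpp4b, a phosphoinositide phosphatase, fell with BafA1, with responses of -1.52 ± 0.26 (adjusted p = 5.3e-05) in Trem2 KO and -1.59 ± 0.29 (adjusted p = 9.7e-05) in WT. Its genotype differences were 0.84 ± 0.32 (adjusted p = 0.056) with BafA1 and 0.77 ± 0.24 (adjusted p = 0.016) with DMSO. The call with DMSO was lost without Trem2 KO DMSO replicate 1 or WT DMSO replicate 1 or 3 (adjusted p = 0.05 to 0.16). Mtm1, another, was higher in Trem2 KO with both treatments, with differences of 0.67 ± 0.13 (adjusted p = 0.00066) with BafA1 and 0.69 ± 0.14 (adjusted p = 0.00066) with DMSO. It rose with BafA1 in both genotypes, with responses of 0.34 ± 0.13 (adjusted p = 0.047) in Trem2 KO and 0.36 ± 0.14 (adjusted p = 0.043) in WT. These calls were lost by DESeq2 (adjusted p = 0.091 in Trem2 KO and 0.06 in WT), in Trem2 KO without Trem2 KO BafA1 replicate 1 or 3 or Trem2 KO DMSO replicate 1 (adjusted p = 0.13 to 0.19) and in WT without WT BafA1 replicate 2 or 3 or WT DMSO replicate 1 (adjusted p = 0.086 to 0.14).

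Of 11 listed receptors that these routes carry, 5 rose and 4 fell with BafA1 in either genotype, and 3 were higher and 8 lower in Trem2 KO with BafA1, and 2 higher and 6 lower with DMSO. Sorl1, a sorting receptor carried by retromer, had 10.9, 12 and 12.7 CPM in Trem2 KO BafA1 and 25.6, 21 and 24.1 CPM in Trem2 KO DMSO. Sorl1 in WT had 8.05, 8.27 and 6.25 CPM with BafA1 and 25.6, 21.9 and 23.6 CPM with DMSO. It fell in both genotypes, with responses of -0.99 ± 0.15 (adjusted p = 9.9e-06) in Trem2 KO and -1.64 ± 0.15 (adjusted p = 5.3e-09) in WT, and its genotype differences were 0.64 ± 0.17 (adjusted p = 0.0069) with BafA1 and -0.01 ± 0.13 (adjusted p = 0.97) with DMSO. Sort1, a Golgi sorting receptor, fell in both genotypes, with responses of -0.54 ± 0.15 (adjusted p = 0.0065) in Trem2 KO and -0.91 ± 0.13 (adjusted p = 5e-06) in WT. The call in Trem2 KO was lost without Trem2 KO DMSO replicate 1 (adjusted p = 0.086). It was lower in Trem2 KO than in WT, with differences of -0.47 ± 0.15 (adjusted p = 0.022) with BafA1 and -0.84 ± 0.14 (adjusted p = 4.9e-05) with DMSO. The call with BafA1 was lost without Trem2 KO BafA1 replicate 2 or 3 or WT BafA1 replicate 1 (adjusted p = 0.051 to 0.11). Lrp1, a scavenger receptor, fell in both genotypes, with responses of -0.79 ± 0.12 (adjusted p = 2e-05) in Trem2 KO and -0.91 ± 0.12 (adjusted p = 1e-06) in WT, and was lower in Trem2 KO than in WT, with differences of -0.65 ± 0.12 (adjusted p = 0.00049) with BafA1 and -0.76 ± 0.12 (adjusted p = 2.7e-05) with DMSO. Slc2a1, the glucose transporter that Snx27 recycles, rose in both genotypes, with responses of 1.13 ± 0.14 (adjusted p = 9.7e-07) in Trem2 KO and 0.82 ± 0.12 (adjusted p = 9.8e-06) in WT, and was lower in Trem2 KO than in WT, with differences of -0.64 ± 0.12 (adjusted p = 0.00063) with BafA1 and -0.95 ± 0.14 (adjusted p = 1.8e-05) with DMSO. Tfrc, the transferrin receptor, was higher in Trem2 KO with both treatments, with differences of 1.03 ± 0.08 (adjusted p = 4.7e-09) with BafA1 and 0.42 ± 0.08 (adjusted p = 3e-04) with DMSO. Its responses were 0.51 ± 0.079 (adjusted p = 1.6e-05) in Trem2 KO and -0.09 ± 0.08 (adjusted p = 0.35) in WT, and they differed by 0.61 ± 0.11 (adjusted p = 0.0015). Lrp10 had responses of -0.05 ± 0.13 (adjusted p = 0.79) in Trem2 KO and 0.52 ± 0.12 (adjusted p = 0.00094) in WT and genotype differences of -0.46 ± 0.12 (adjusted p = 0.0068) with BafA1 and 0.11 ± 0.13 (adjusted p = 0.55) with DMSO. Its responses differed by -0.57 ± 0.17 (adjusted p = 0.043), a call lost by DESeq2 (adjusted p = 0.068) and without Trem2 KO BafA1 replicate 3, Trem2 KO DMSO replicate 1 or 2, WT BafA1 replicate 2 or 3 or WT DMSO replicate 1, 2 or 3 (adjusted p = 0.063 to 0.12).

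The 19 genes that passed no test in any comparison were Chmp6, Chmp7, Snx4, Snx8, Snx13, Snx17, Snx20, Snx21, Snx25, Snx32, Vps4a, Vps4b, Vps13d, Vps25, Vps26b, Vps36, Vps41, Vps51 and Vps53. A missed test does not show that their levels were equal. Of the 104 calls made on the 71 genes over the pairwise comparisons, those that held with each library left out in turn were 18 of 28 in Trem2 KO and 23 of 33 in WT for BafA1, and 11 of 19 with BafA1 and 14 of 24 with DMSO for genotype. Neither the genes without a call nor the calls that held were counted over all genes, so no share stands beside them.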

How the data were processed

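Poly(A) RNA of 12 cultures was profiled with a 3′ tag kit that adds unique molecular identifiers to remove PCR duplicates, per the labels' protocols. Salmon and GRCm39 were used per the submitters' processing notes, and the Salmon version, annotation, duplicate removal and counting strand were not given in the sources used here. Without strand, reads of a gene and an antisense partner cannot be told apart. The authors deposited estimated counts per gene, not normalized, of which 42.0% of values above 0 were not whole (tolerance 1e-06), so they were rounded. A second table holds the authors' log2 CPM, which TMM log2 CPM with a prior count of 2 matched within 0.000446, and it was not used for tests.

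Genes were filtered with filterByExpr (minimum count 10, total 15), leaving 12052, and then tested by edgeR 4.0.16 under R 4.3.3 (quasi-likelihood, TMM scaling, 12 libraries in 1 fit, a mean per group, no block). An SE is the log2 fold change over the root of its F value. P-values were adjusted by Benjamini-Hochberg across the 12052 genes, with a threshold of 0.05. CPM used TMM library sizes. The fit was first tested on simulated counts. Promoters were read with Python 3.11.15 from RefSeq's table, whose build is not that of the counts. DESeq2 1.42.0, limma 3.58.1, other scalings, filters, blocks and single libraries left out were alternatives. The members, lists and tests were chosen with earlier results of these data known.

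Genes given library by library were up to 8 higher and 8 lower per pairwise comparison, by fold change among those called with at least 10 CPM on average in the higher group. Vps35 and Vps33a were added after their values were seen, and for other pathway genes the 3 largest each way were named, except 1 gene that is not reported here. Replicates are pools of mice per the labels, and none agreed within sampling noise (chi-square per degree of freedom 2.24 to 5.96). RNA integrity numbers were 9.7 to 9.9, and the common biological coefficient of variation was 0.0795. Vamp7, on a pathway list, was not analysed here.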

Additional observations from a re-analysis of the deposited data

How the results depend on the processing

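Each count of genes higher or lower was recomputed under the alternatives, and 0 of the 2181 alternative values of the 104 called results changed direction: 1960 kept their call, 221 lost it, and 63 of the 104 results kept it in all. With a limit of 2-fold, 1 was higher and 1 lower with BafA1 in Trem2 KO and 1 and 2 in WT, and 0 and 0 by genotype with either treatment. With no filter on low counts the genes lower with BafA1 in Trem2 KO were 5, those higher in Trem2 KO with DMSO 13 and those lower in Trem2 KO with BafA1 1. With library size alone 7 were lower in Trem2 KO with DMSO. In the difference of responses 1 was lower with RLE factors and 2 with a filter of 10 CPM. The cause was not tested. No other scaling, DESeq2, limma-voom or a fit on the compared libraries alone moved a count by over 1.5 times.

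With 1 library left out, the counts higher with BafA1 ranged from 12 to 16 in Trem2 KO and from 16 to 24 in WT, and those lower from 7 to 13 and from 8 to 10. By genotype, those higher ranged from 10 to 16 with BafA1 and from 15 to 21 with DMSO, and those lower from 1 to 4 and from 3 to 5. In the difference of responses they were 0 to 0 higher and 0 to 2 lower. The genes lower in Trem2 KO with BafA1 against DMSO were 8 without Trem2 KO DMSO replicate 1 or 3 and 7 without Trem2 KO BafA1 replicate 2. Those higher in Trem2 KO than in WT with BafA1 were 10 without WT BafA1 replicate 1, and those lower were 1 without WT BafA1 replicate 3, Trem2 KO BafA1 replicate 1 or Trem2 KO BafA1 replicate 3.

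With the replicate number as a block, 16 were higher and 13 lower with BafA1 in Trem2 KO, 25 and 11 in WT, 15 and 3 by genotype with BafA1, and 21 and 4 with DMSO. In the difference of responses the block was set within each genotype and gave 1 higher (Snx5, adjusted p = 0.04) and 1 lower (Snx19, adjusted p = 0.047). For the comparison of genotypes with BafA1 a block across genotypes was used, under which Snx3 lost its call. The labels do not tie equal numbers to a shared animal or day. For that reason the numbers were not taken to pair samples in the main fit. Deviations of same-numbered samples correlated by 0.074 to 0.164 in Trem2 KO and by -0.005 to 0.061 in WT. Those of differently numbered samples correlated by -0.114 to -0.003 in Trem2 KO and by -0.11 to 0.068 in WT. In Trem2 KO each sample correlated best with its own number, so these values do not show that the samples are unpaired.

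With no filter, Ptpn23 and Lrp10 also lost their calls in the difference of responses (adjusted p = 0.054 and 0.11), as did Lrp10 with upper-quartile factors (adjusted p = 0.053) and with library size alone (adjusted p = 0.068). With BafA1 the genotype calls of Commd9, Washc2 and Vamp4 were lost with no filter (adjusted p = 0.18, 0.063 and 0.15), and that of Commd9 by DESeq2 (adjusted p = 0.11) and with library size alone (adjusted p = 0.065). The BafA1 responses of Mtm1 were also lost under other scalings, filters and tools (adjusted p = 0.052 to 0.068). Of the 71 genes, Snx5 and Snx6 lost their BafA1 calls in Trem2 KO only with no filter (adjusted p = 0.11 and 0.066). Vps37c lost its genotype call with DMSO only there (adjusted p = 0.072). By DESeq2 the responses of Chmp1b, Snx11, Snx29, Vps13c and Vps37b in Trem2 KO and of Snx3, Snx19, Vps13b and Vps37c in WT lost their calls. So did the genotype differences of Snx24, Vps45 and Vps52 with BafA1 and of Chmp1a, Vps45 and Vps54 with DMSO. Counting error limits the genes under 10 CPM.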
